A study of Mus musculus with 93 samples.

Results

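Precardiac spheroids are aggregates of mouse embryonic stem cells (mESCs) that are driven towards heart progenitors by growth factors. The wells described here are pools of GFP+ cells sorted from such spheroids, and they were split by their level of Myl7, the atrial regulatory myosin light chain and an early marker of cardiac muscle. Of the 37 GFP+ spheroid wells ranked, the 12 with the highest and the 12 with the lowest Myl7 were taken, so that 24 of the 93 libraries of the series are members. Myl7 was measured in CPM, the count scaled to a common total count per well. Because Myl7 chose the wells, every difference between them is given as a description, and Myl7 itself was not tested.

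All spheroid cells came from mESCs that carry Hcn4-GFP, Tbx1-Cre and Ai9, harvested at day 5.5 of differentiation. GFP+ cells express the Hcn4-GFP reporter, which marks the first heart field (FHF), and RFP+ cells carry the Ai9 label that Tbx1-Cre switches on, which marks the second heart field (SHF). RFP stays on in all descendants of a cell that once had Cre, whereas GFP follows Hcn4 itself. The series has 38 GFP+ and 46 RFP+ spheroid wells, and 5 GFP+ and 4 RFP+ libraries from embryos with the same 3 alleles. Each library is 1 well of 10 sorted cells. The embryos are E7.75 in the protocol and E8.5 in the sample titles. Growth factors were given alone or in combination, and the labels do not say which were used for a well. GFP+ well C9, with 6288 counts in total, is outside the rule and was left out. The labels do not assign wells to separate differentiations, so the tests measure the spread between wells.

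Cardiac muscle contracts through the sarcomere, in which thin filaments of actin and troponin slide along thick filaments of myosin, with titin as the spring that spans them. The genes of this machine are switched on together as progenitors become cardiomyocytes, under transcription factors such as Mef2c, Gata4, Tbx5 and Nkx2-5 and the cofactor myocardin, which acts with serum response factor. In the early heart Myl7 is made throughout the forming tube, and Actc1, Tnnt2 and Ttn appear close to it in time.

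The bases before the transcript starts of 5 genes of this description are shown because the binding motifs of serum response factor and of Mef2 family proteins lie in them. Each run is the 250 bases before a RefSeq transcript start on the assembly GRCm38.p6, read 5′ to 3′ on the strand of the gene, and the match is in capitals. The CArG box, which serum response factor binds, is in capitals for Myl7 (chr11:5898783-5899032, minus strand), Actc1 (chr2:114052876-114053125, minus strand) and Myl3 (chr9:110763428-110763677, plus strand). The MEF2 box is in capitals for Ttn (chr2:76982548-76982797, minus strand) and Pgam2 (chr11:5803797-5804046, minus strand).
Myl7: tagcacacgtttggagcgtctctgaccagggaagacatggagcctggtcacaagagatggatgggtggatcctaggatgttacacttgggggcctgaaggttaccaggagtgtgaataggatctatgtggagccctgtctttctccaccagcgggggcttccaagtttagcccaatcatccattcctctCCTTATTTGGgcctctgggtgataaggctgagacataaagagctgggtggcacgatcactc
Actc1: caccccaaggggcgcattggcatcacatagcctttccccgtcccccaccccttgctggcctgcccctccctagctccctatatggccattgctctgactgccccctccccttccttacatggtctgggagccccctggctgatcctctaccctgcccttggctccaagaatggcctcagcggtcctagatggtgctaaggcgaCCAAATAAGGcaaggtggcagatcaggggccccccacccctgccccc
Myl3: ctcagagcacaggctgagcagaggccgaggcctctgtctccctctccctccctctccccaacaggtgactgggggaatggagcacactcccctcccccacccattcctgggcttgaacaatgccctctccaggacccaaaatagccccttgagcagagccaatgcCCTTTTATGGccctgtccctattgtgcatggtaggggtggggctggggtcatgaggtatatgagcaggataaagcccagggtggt
Ttn: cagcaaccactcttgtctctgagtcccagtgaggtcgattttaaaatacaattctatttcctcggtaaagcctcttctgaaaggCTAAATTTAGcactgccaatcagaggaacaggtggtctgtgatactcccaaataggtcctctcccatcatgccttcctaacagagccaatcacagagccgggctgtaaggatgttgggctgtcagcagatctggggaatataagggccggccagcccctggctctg
Pgam2: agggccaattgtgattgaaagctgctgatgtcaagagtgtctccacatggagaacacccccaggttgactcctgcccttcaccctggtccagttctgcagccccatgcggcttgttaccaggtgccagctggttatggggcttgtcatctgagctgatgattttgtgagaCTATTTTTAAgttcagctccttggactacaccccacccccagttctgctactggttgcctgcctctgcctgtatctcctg
The match begins 61 bases before the start in Myl7, 47 in Actc1, 85 in Myl3, 166 in Ttn and 80 in Pgam2. Of Myl7 and the 15 genes named below as higher in the wells with much Myl7, 13 were found in the promoter table. These 13 genes have 18 windows, since a gene can have several starts. A CArG box lay in 3 of the 18 windows (3 genes) and in 1.47% of all 32851 windows of that length, on either strand. A MEF2 box lay in 2 of the 18 windows (2 genes) and in 2.92% of all windows. The letters GATAAG, which Gata factors bind, lay in 2 of the 18 windows (Myl7 and Asb4) and in 6.55% of all windows, on either strand. These are matches of letters and no binding was measured.

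The ranking by Myl7 was not an even slope. Among the 37 GFP+ wells, 30 held between 0 and 10.4 CPM of Myl7, which is 0 to 19 counts, and the widest gap on the scale log2(CPM + 1) separated them from the other 7. Those 7 wells held 58.3 CPM (G8), 137 (C7), 191 (E8), 228 (G10), 231 (H7), 324 (B9) and 372 CPM (B11), from 173 to 1158 counts. The Myl7-low wells lay between 0 and 0.706 CPM, with no more than 1 count each. The Myl7-high wells ran from 4.32 to 372 CPM with a median of 97.6, and 5 of these 12 wells (A7, H9, G9, C8 and E7) lay below the gap with 4 to 19 counts. The 13 wells between the groups held 0.771 to 3.54 CPM. At the upper edge, well A7 just inside had 12 counts (4.32 CPM, exact Poisson 95% interval 2.23 to 7.54) and well E10 just outside had 7 counts (3.54 CPM, 1.42 to 7.28). At the lower edge, wells E9 and F9 had 1 count each. These intervals cover counting error only. In the 5 Myl7-low wells with a count of 0, the upper end of the same interval was 1.33 (D7) to 4.22 CPM (A8). Therefore the wells on either side of each edge could not be separated in Myl7 at this depth.

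**Figure D1:**
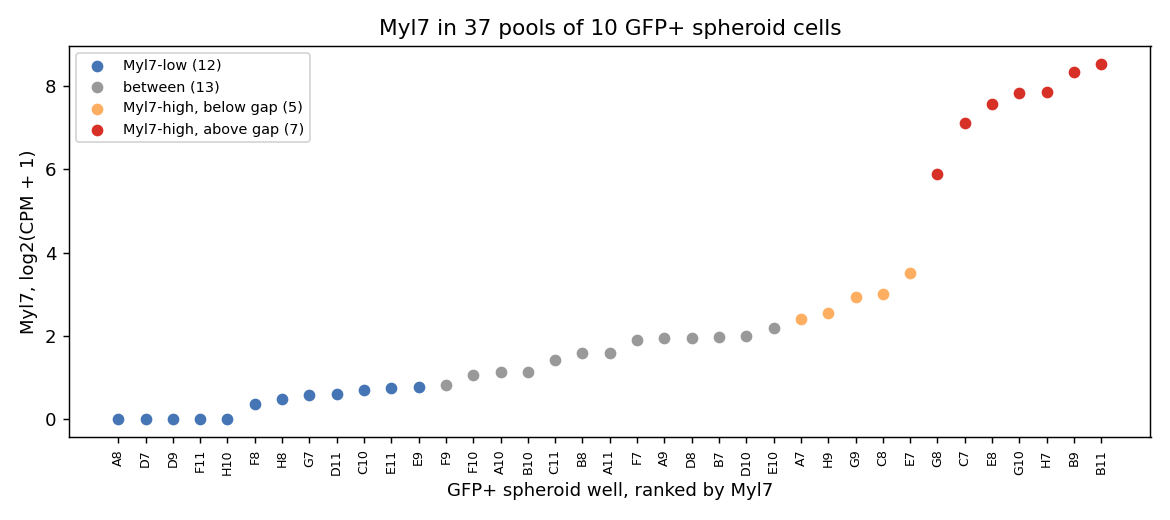
Myl7 in each of the 37 GFP+ spheroid wells, ranked, as log2(CPM + 1) on the vertical axis and coloured by set. The 7 wells to the right of the widest gap hold 58.3 to 372 CPM, and the other 30 hold at most 10.4 CPM.

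Total counts were 874172 to 3540834 in the Myl7-low wells and 828193 to 4371849 in the Myl7-high wells, and 12837 to 14599 and 13159 to 14651 genes were detected. The 7 wells above the gap were deeper than the 30 below it, with median totals of 2968273 and 1566068. Ribosomal protein genes took 6.39% to 7.39% of the counts in the Myl7-high wells and 6.55% to 7.56% in the Myl7-low wells. The wells above the gap stood in each plate column used for GFP+ cells, 2 of 8 wells in column 7, 2 of 8 in column 8, 1 of 7 in column 9, 1 of 8 in column 10 and 1 of 6 in column 11. Hcn4, the gene behind the GFP reporter and a pacemaker channel, had reads in all 37 wells (1.23 to 17.2 CPM), whereas the RFP+ wells had at most 2.59 CPM. Tbx1, the gene that drives Cre, had reads in 2 of the 30 wells below the gap and in 0 of the 7 above it, and in the RFP+ wells its median was 2.42 CPM.

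Between the 12 Myl7-high and the 12 Myl7-low wells, the genes that stood out were Ttn, Tnni1 and Mef2c. Ttn, the sarcomeric spring, had 2.73, 126 and 275 CPM as lowest, median and highest value in the Myl7-high wells and 2.26, 14.3 and 25.0 CPM in the Myl7-low wells. The log2 fold change was 3.17 ± 0.44 (SE, 12 wells each). Tnni1, the slow skeletal troponin I that the embryonic heart uses, had 6.62, 150 and 323 CPM against 4.58, 15.1 and 33.1 CPM, a log2 fold change of 2.99 ± 0.44. Mef2c, a transcription factor of heart progenitors, had 1.21, 27.9 and 124 CPM against 0.895, 8.47 and 21.9 CPM, a log2 fold change of 2.21 ± 0.42. The groups overlapped for all 3 genes, because some Myl7-high wells were as low as the Myl7-low wells. At an adjusted p under 0.1 in edgeR, these 3 of 10076 genes (0.0298%) were called higher and 0 were called lower, and the wells were chosen by Myl7. At an unadjusted p under 0.05 there were 528 of the 10076 genes, near the share of 0.05 that no difference would give. DESeq2 called 5 genes higher. Actc1, cardiac alpha actin and the other marker of the onset of muscle expression, had a log2 fold change of 2.76 ± 0.70 and was not called.

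The 5 Myl7-high wells below the gap were also set apart. Against the 12 Myl7-low wells, 0 of 10698 genes were called in edgeR. Ttn had 2.73, 24.5 and 54.3 CPM in these 5 wells and its log2 fold change was 0.95 ± 0.43. Wells H9 and G9, with 54.3 and 41.3 CPM, lay above every Myl7-low well in Ttn. That of Tnni1 was 0.60 ± 0.41, that of Mef2c was 0.53 ± 0.49 and that of Actc1 was -0.16 ± 0.97. Of the 15 genes described next, 7 were tested here and 5 had a log2 fold change above 0. The 5 and the 7 wells were not tested against each other, because Myl7 chose both. The label of the Myl7-high wells as wells with onset of cardiac muscle expression was thus not shown by a call for these 5. The next paragraphs set the 7 wells against the other 30, a split that was chosen after the values were seen.

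In the 7 wells above the gap, 15 of 11481 genes were called higher in edgeR and 3 were called lower, which is 0.131% and 0.0261% of the genes tested (together 0.157%). An unadjusted p under 0.05 was found for 615 genes, again near the share of 0.05 that no difference would give. The median log2 fold change over all genes was -0.00396. Of the 15 genes, 9 encode sarcomere parts or proteins that build and turn over the sarcomere, and 6 (Myl4, Myocd, Nexn, Tnnc1, Tnni1 and Ttn) did not overlap between the wells above and below the gap. Such a lack of overlap on the higher side was found for 0.0523% of the genes tested. Several of the 15, such as Tnnc1, Myl4 and Myocd, passed the minimum count only because the 7 wells are high. These genes, and Cap2, Myl3, Pgam2, Tnnt2 and Trim55, were not tested in the 12 against 12 wells. Nor were they tested in the 5 wells against the Myl7-low wells. Leaving out each of the 7 wells in turn gave 13 to 17 genes higher and 1 to 4 lower, and 12 of the 15 genes were kept every time. With the plate column in the fit, 15 genes were higher. In pools of 10 cells, fewer cells of a type and less RNA per cell cannot be told apart.

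Tnnc1 encodes troponin C, the calcium sensor of the thin filament, and had 14.8 CPM in G8, 81.7 in C7, 49.9 in E8, 91.2 in G10, 82.9 in H7, 162 in B9 and 108 in B11. The 30 wells below the gap had 0, 0.927 and 10.2 CPM as lowest, median and highest value, so that no well below the gap reached any well above it. The log2 fold change was 5.67 ± 0.41. Tnnt2, the troponin T that ties the complex to tropomyosin, had 14.2, 72.3, 74.3, 99.1, 72.1, 126 and 62.0 CPM in the same order of wells. Below the gap it had 0, 2.14 and 15.2 CPM, and 1 of the 30 wells exceeded the lowest well above the gap. The log2 fold change was 4.60 ± 0.39. Tnni1 had 136, 163, 173, 296, 188, 323 and 223 CPM above the gap and 4.58, 17.5 and 60.3 CPM below it, with a log2 fold change of 3.33 ± 0.22. Unlike Tnnc1, Tnni1 was therefore well above 0 in wells with almost no Myl7.

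Actin and myosin genes were less even among the 7 wells. Actc1 had 99.7 CPM in G8, 36.6 in C7, 85.3 in E8, 240 in G10, 16.1 in H7, 34.9 in B9 and 91.9 in B11, and 0, 1.39 and 26.97 CPM in the wells below the gap. Of the 7 wells, 6 lay above every well below the gap, and H7 did not. The log2 fold change was 4.004 ± 0.532. Acta2, the smooth muscle actin that the early heart also makes, had 108, 90.1, 254, 353, 11.4, 182 and 144 CPM in the same order against 0, 17.4 and 97.8 CPM, a log2 fold change of 2.40 ± 0.51. H7 was the lowest of the 7 wells for Actc1 and for Acta2. The actin genes are close in sequence, so that reads could be assigned to the wrong copy. Myl4, the atrial essential light chain, had 11.1, 56.7, 72.3, 118, 48.8, 150 and 78.5 CPM against 0, 0.399 and 5.95 CPM, and the log2 fold change was 5.85 ± 0.42. Myl3, the ventricular essential light chain, had 6.06, 43.2, 16.5, 3.17, 60.2, 26.3 and 48.7 CPM against 0, 1.31 and 10.9 CPM, a log2 fold change of 3.66 ± 0.55. G10, the highest of the 7 wells for Actc1, was the lowest for Myl3, and H7 was the highest.

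Ttn had 96.7 CPM in G8, 155 in C7, 199 in E8, 273 in G10, 183 in H7, 262 in B9 and 275 in B11, and at most 54.3 CPM in the wells below the gap (lowest 1.19, median 15.8). Its log2 fold change was 3.54 ± 0.27. Nexn, an actin binding protein of the Z-disc, had 22.9 to 52.5 CPM above the gap and 1.99 to 15.8 CPM below it, a log2 fold change of 2.25 ± 0.27. Trim55, a ubiquitin ligase of the sarcomere, had 1.496 to 12.5 CPM against 0 to 6.78 CPM, with a log2 fold change of 3.34 ± 0.65.

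Among regulators, Mef2c and Myocd were called. Mef2c had 14.5 CPM in G8, 34.5 in C7, 73.3 in E8, 124 in G10, 74.1 in H7, 74.4 in B9 and 88.7 in B11, and 0, 8.47 and 25.6 CPM below the gap, a log2 fold change of 2.84 ± 0.37. G8, the well with the least Myl7 of the 7, lay within the range of the wells below. Myocd, which encodes myocardin, had 11.8, 10.8, 10.97, 19.0, 19.1, 31.3 and 67.5 CPM in the same order against 0, 0.859 and 6.77 CPM, and the log2 fold change was 3.81 ± 0.53. Srf, the partner of myocardin, had 8.64 to 31.7 CPM above the gap and 8.54 to 29.5 CPM below it.

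The other 3 genes higher above the gap are no sarcomere parts. Pgam2, the muscle form of a glycolytic enzyme, had 57.9 CPM in G8, 5.72 in C7, 13.96 in E8, 19.8 in G10, 73.5 in H7, 30.2 in B9 and 7.85 in B11, and 0, 0 and 18.7 CPM below the gap. The log2 fold change was 4.03 ± 0.59, and the order of the 7 wells differed from that of Myl7. Asb4, a substrate adaptor of a ubiquitin ligase, had 4.04, 7.32, 1.496, 29.3, 25.0, 25.7 and 41.6 CPM against 0, 2.04 and 10.4 CPM, a log2 fold change of 2.56 ± 0.52. Cap2, an actin regulator of striated muscle, had a log2 fold change of 2.66 ± 0.61 and was not called when C7, G10, H7 or B9 was left out. Acta2 was not called without G10, and Asb4 was not called without B11.

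The 3 genes called lower were not equally firm. Alas1, the first enzyme of haem synthesis, had 18.99 to 43.6 CPM above the gap and 31.7 to 89.2 CPM below it, a log2 fold change of -1.01 ± 0.18, and was called with each of the 7 wells left out. Rnf185 (-0.60 ± 0.15) and Rnf25 (-2.66 ± 0.63), which encode RING finger proteins, lost the call without some of the 7 wells. Rnf25 had at most 3.14 CPM above the gap and a median of 6.16 CPM below it.

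**Figure D2:**
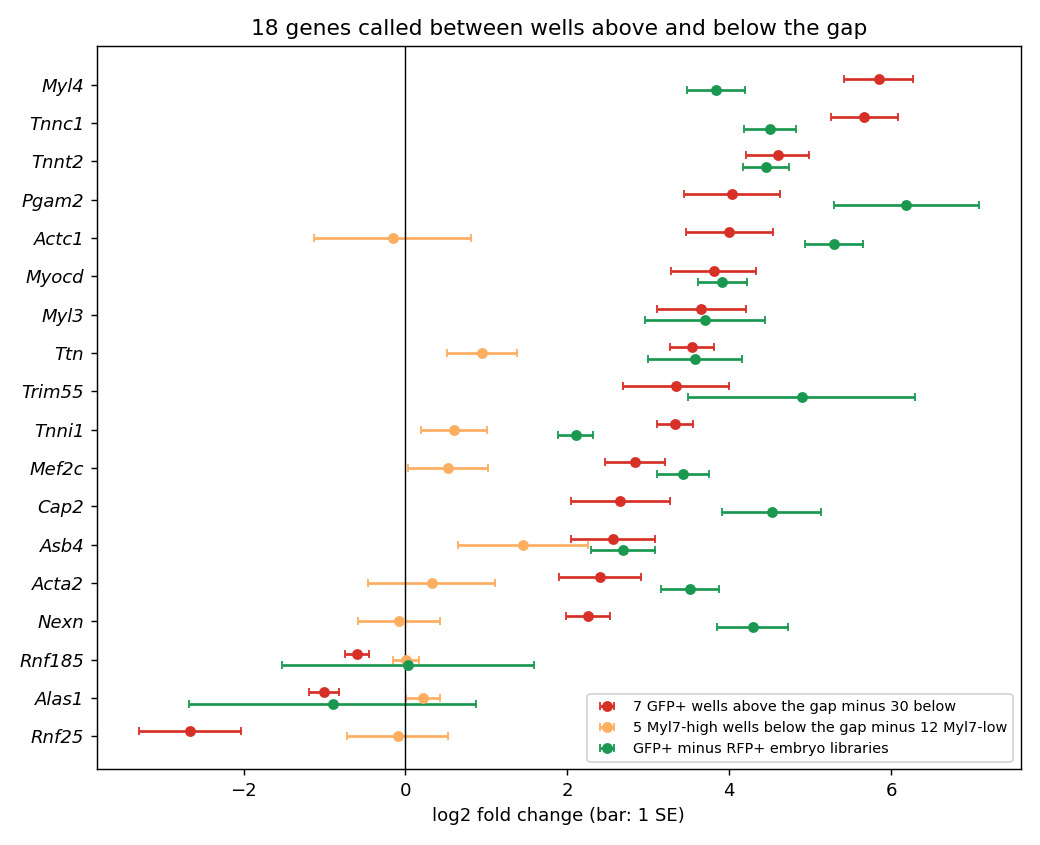
Log2 fold change (horizontal axis, bars 1 SE) of the 18 genes called between the 7 GFP+ wells above the gap and the 30 below it, with the same genes in the 5 Myl7-high wells below the gap and in the embryo libraries. The 15 genes that are higher above the gap are also higher in GFP+ embryo libraries, and in the 5 wells below the gap those tested lie between -0.16 and 1.45.

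Of the 18 genes called above against below the gap, 9 are in the 3 sarcomere lists. Of 12 thin filament genes, 8 were tested above against below the gap, 4 were called higher and the median log2 fold change was 1.79. Of 11 thick filament genes, Myl3 and Myl4 passed the minimum count, and they did so through the wells above the gap, so that their 2 calls say little about the list. Tnnc1 and Tnnt2 of the thin filament list also passed through those wells, so that the count and median of that list rest in part on them. Of 25 genes of titin, Z-disc and sarcomere assembly, 15 were tested, 3 were called and the median stood at 0.56. Among the tests of GFP+ wells, Trim55 of this list passed the minimum count only in the split at the gap, so that its call says little about the list. Over all genes tested, 0.131% were called higher and the median was near 0, as given above. Tpm1, the tropomyosin of the heart, had 492 to 805 CPM above the gap and 303 to 732 CPM below it. Smyd1 and Unc45b, which help to fold myosin, had log2 fold changes of 1.08 ± 0.40 and 0.60 ± 0.46 and were not called. Over the 3 sarcomere lists without Myl7, the summed level was 1386 to 2486 CPM above the gap and 682 to 1584 CPM below it.

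Calcium handling genes were not called. The share called over all genes tested was 0.157%, so that 0 calls in this or another short list say little. Of 15 genes 6 passed the minimum count, and their log2 fold changes had a median of 0.13. Ryr2, the calcium release channel, had 2.48 ± 0.65 and Slc8a1, the sodium calcium exchanger, had 2.12 ± 0.64, and neither passed the test. Atp2a2, the calcium pump, had 79.3 to 97.9 CPM above the gap and 47.5 to 108 CPM below it. Of 11 pacemaker and conduction genes 4 were tested and 0 were called, with a median of 0.06. Hcn4 had 4.12 to 11.4 CPM above the gap and 1.23 to 17.2 CPM below it, a log2 fold change of 0.08 ± 0.39. All 7 wells above the gap lay within the range of the wells below for the reporter gene.

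Of 18 cardiac transcription factors, 13 were tested and Mef2c and Myocd were the 2 called. Myocd passed the minimum count through the wells above the gap, so that its call says little about the list. Gata4 had a log2 fold change of 0.42 ± 0.43, Hand2 had 0.42 ± 0.33 and Hand1 had -0.50 ± 0.47. Tbx20 had 2.07 ± 0.72 and was not called. Nkx2-5 had reads in 2 of the 7 wells above the gap (2.38 CPM in G10 and 0.555 in H7) and in 0 of the 30 wells below it. Tbx5 had 0 to 7.27 CPM above the gap and 0 to 8.15 CPM below it.

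Of the 18 natriuretic peptide and chamber genes, 10 were tested, 0 were called and the median log2 fold change was -0.11. Their summed level was 459 to 718 CPM above the gap, 485 to 1037 CPM below it and 450 to 1605 CPM in the GFP+ embryo libraries. A further 5 genes of heart muscle were picked after their values were seen. Myh6, the alpha myosin heavy chain, had reads in 6 of the 7 wells above the gap (at most 10.3 CPM) and in 1 of the 30 below it. Myh7, the beta heavy chain, had 0 to 17.1 CPM above the gap and 0 to 4.73 CPM below it. Tnni3, the adult troponin I, had at most 0.793 CPM above the gap, Nppa had at most 2.36 CPM and Ankrd1 had reads in 1 well. None of these 5 genes passed the minimum count, so they were not tested. In the GFP+ embryo libraries Ankrd1 had 2823, 2647, 1807, 2644 and 2818 CPM, and Myh6 had 532, 970, 665, 818 and 685 CPM.

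**Figure D3:**
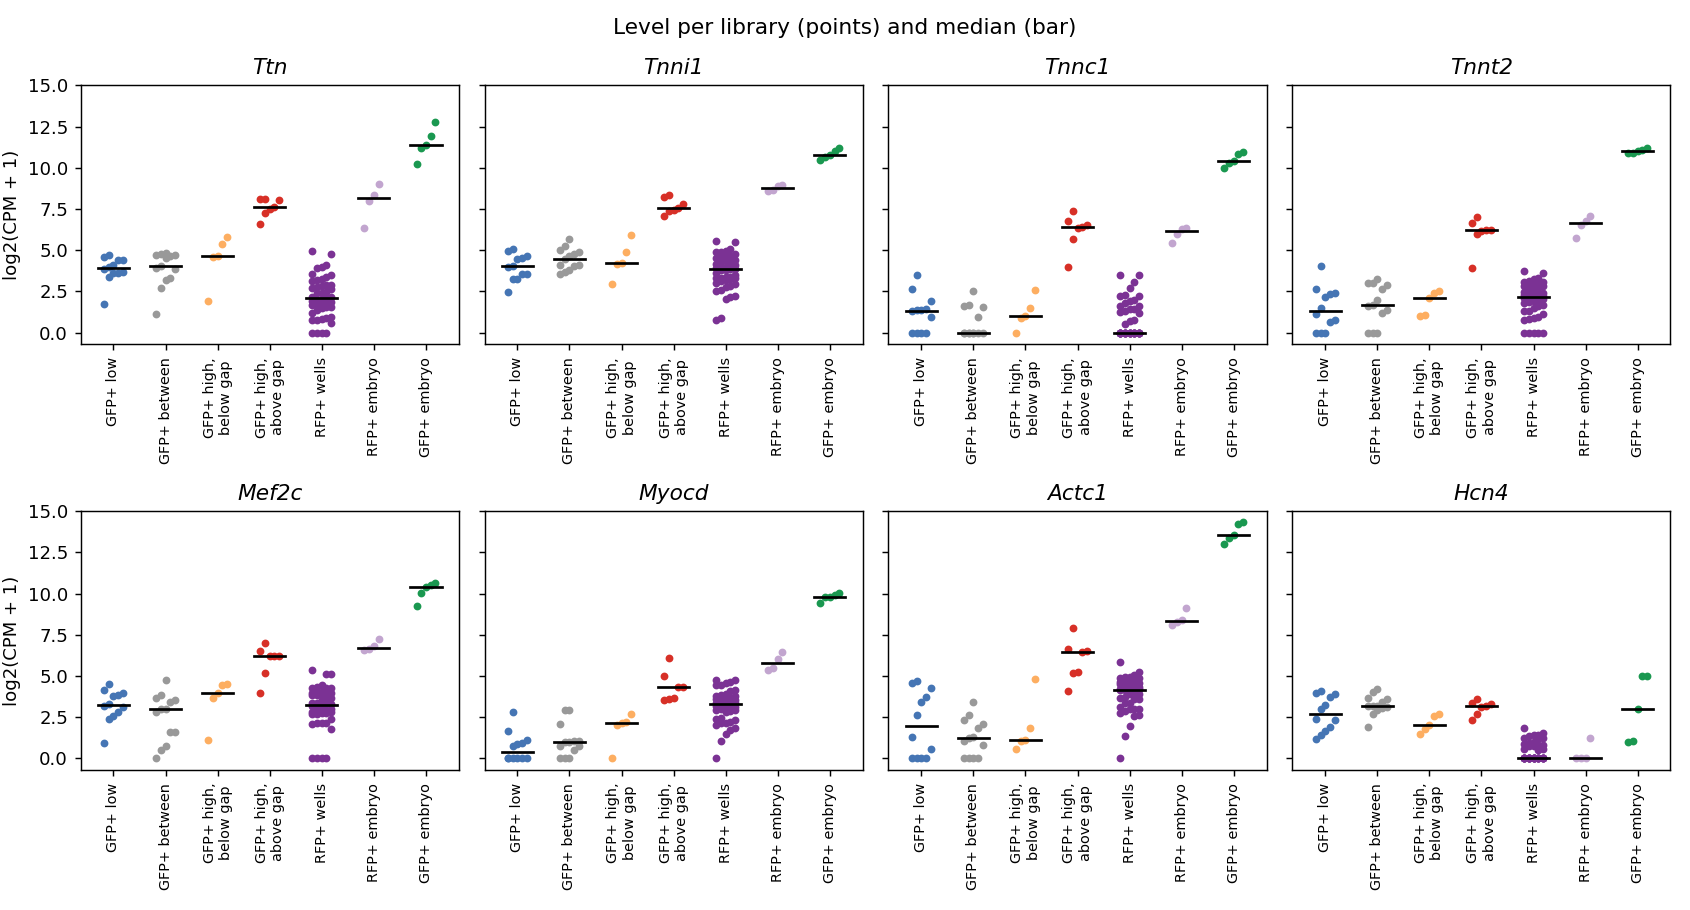
Levels as log2(CPM + 1) in every library (points) with the median (bar) for 8 genes, in the 4 sets of GFP+ wells, the RFP+ wells and the embryo libraries. Ttn, Tnni1, Tnnc1, Tnnt2, Mef2c, Myocd and Actc1 have higher medians in the 7 wells above the gap than in the other sets of GFP+ wells. These genes are higher still in GFP+ embryo libraries. For Mef2c, Myocd and Actc1 some RFP+ wells lie within the range of the 7 wells. Hcn4 has medians of 3.06 to 8.08 CPM over the GFP+ sets.

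Markers of other cells and states gave no calls. Over all genes tested above against below the gap 0.157% were called, so that 0 calls in lists of this size say little. The lists of second heart field and RFP side genes (11 tested), Bmp ligands, receptors and targets (15), Wnt targets (18), primitive streak and nascent mesoderm (7), pluripotency (20), endothelium and blood (2), endoderm and epithelium (12) and neural genes (4) had 0 calls above against below the gap. Their medians lay between -0.40 and 0.17 on the log2 scale. Among the members that were not called were the endoderm genes Cer1 (log2 fold change 2.33 ± 0.93) and Foxa2 (1.79 ± 0.81), the Wnt target Lgr5 (1.35 ± 0.67) and Eomes of the primitive streak (1.10 ± 0.79). Cer1 had 0, 6.74 and 229 CPM as lowest, median and highest value above the gap and 0, 0 and 180 CPM below it, and the part of such cells in the muscle gene levels was not tested. The summed level of the second heart field list was 117 to 318 CPM above the gap and 112 to 328 CPM below it. The summed level of the pluripotency list was 389 to 1354 CPM above the gap and 348 to 2068 CPM below it. Dppa5a, a pluripotency gene, ran from 10.1 to 676 CPM among the 7 wells and from 2.62 to 1183 CPM among the 30. The summed level of the endoderm and epithelium list was 2717 to 6977 CPM above and 2729 to 7640 CPM below the gap. That of the endothelium and blood list was 38.6 to 56.9 CPM against 19.2 to 88.2 CPM, 4 of its 22 genes had no reads in any of the 37 wells, and Kdr, the vascular receptor, had at most 3.89 CPM above the gap. Isl1, made by cardiac progenitors of both fields, had 29.8 to 85.3 CPM above the gap and 20.6 to 158 CPM below it.

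The lists of proliferation and metabolism genes gave no calls either. The enzyme genes Pgam2 and Alas1, which were called, are in none of these lists. Here too 0 calls are near the share of 0.157% over all genes tested. All 26 DNA replication and all 26 mitosis genes were tested, with medians of 0.12 and 0.18. The 24 p53 targets had a median of -0.15, 20 glycolysis genes had 0.10, 41 nuclear genes of the respiratory chain had 0.03 and 18 genes of fatty acid use and mitochondrial biogenesis had -0.03. Ldha had a log2 fold change of 0.51 ± 0.11 in the 12 against 12 wells and was not called.

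**Figure D4:**
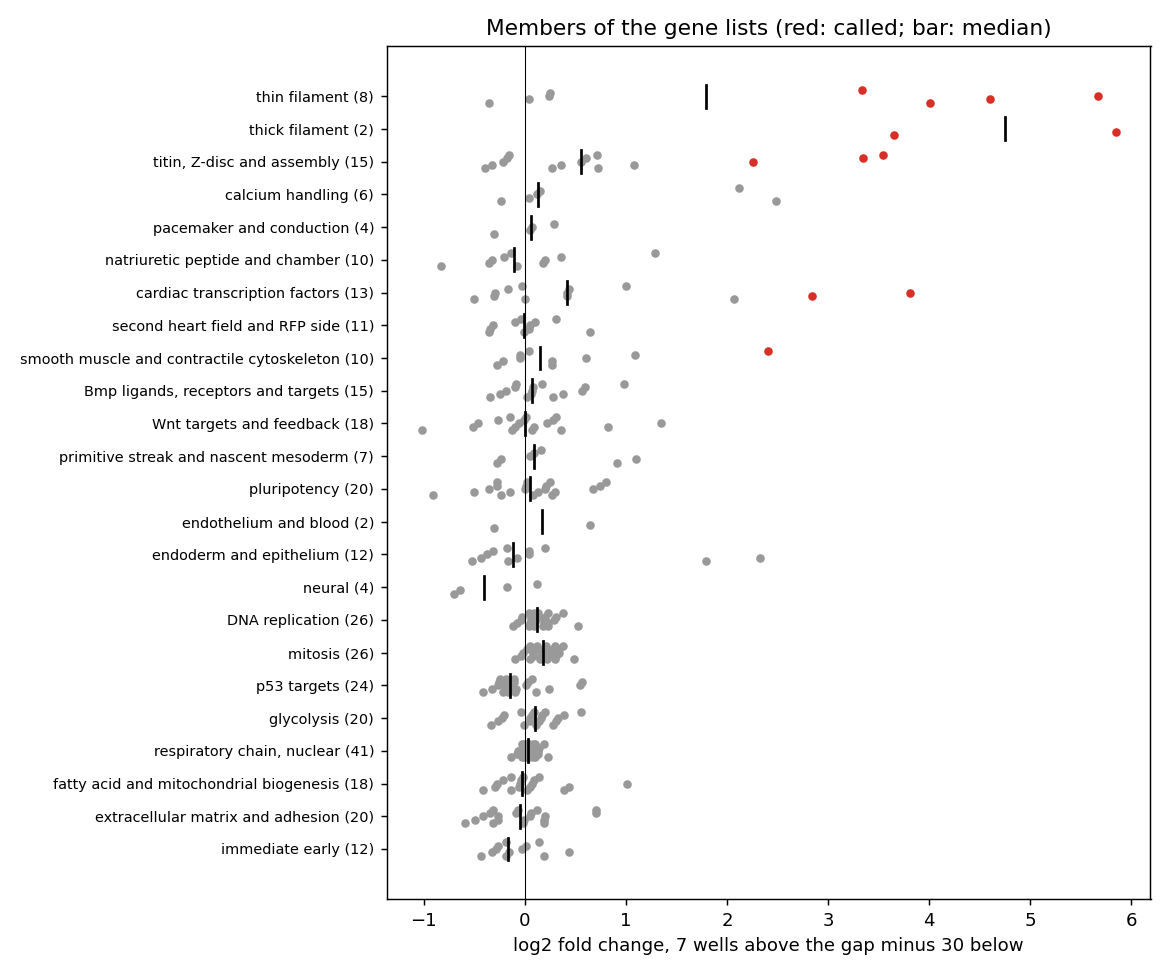
Log2 fold change of each tested member of 24 gene lists, 7 wells above the gap minus 30 below, with called genes in red and the list median as a bar. The called members sit in the sarcomere, transcription factor and smooth muscle lists, whose medians run from 0.15 (smooth muscle) to 4.75 (thick filament). The thick filament median is that of Myl3 and Myl4 alone, which passed the minimum count through the wells above the gap. The medians of the other lists lie between -0.40 (neural) and 0.18 (mitosis).

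The same question was asked in wells that the rule did not use. Among the 46 RFP+ spheroid wells, Myl7 ran from 0 to 68.5 CPM with a median of 6.81, so that their middle lay above that of the GFP+ wells and their top near the lowest of the 7 wells. The slope of each gene on log2(Myl7 CPM + 1) was tested in edgeR. Of 8027 genes, 1 rose with Myl7 at an adjusted p under 0.1 (0.0125%) and 0 fell, with 523 at an unadjusted p under 0.05. Of the 15 genes that were higher above the gap, 3 passed the minimum count in the RFP+ wells and 0 were called. The slope of Tnni1 was 0.0017 ± 0.067 per log2 unit (adjusted p = 0.998, edgeR), and its level was 0.720, 13.3 and 45.6 CPM as lowest, median and highest value. The slope of Actc1 was 0.074 (adjusted p = 0.894, edgeR), with 0, 17.03 and 57.0 CPM. The slope of Asb4 was 0.32 (adjusted p = 0.107, edgeR), with 0.664, 17.2 and 145 CPM, and it was called with DESeq2 size factors, with no minimum count and without the 2 wells farthest from the median of Myl7. Ttn had 0, 3.22 and 30.3 CPM and Tnnc1 had 0, 0 and 10.2 CPM in the RFP+ wells, and neither could be tested. The 1 gene that rose, Fbxw11, which encodes a ubiquitin ligase subunit, had a slope of 0.13 (adjusted p = 0.0558, edgeR) and a log2 fold change of 0.089 above against below the gap in the GFP+ wells. It was named after its value was seen. In 7 pairs of RFP+ wells, in plate columns 3 and 4 of the same row, the counts were closer to each other than in any other pair of RFP+ wells, and with these pairs summed 0 genes were called.

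In the 13 GFP+ wells between the groups, where Myl7 spans 0.771 to 3.54 CPM, 0 of 7052 genes were called on the slope in edgeR, with 425 at an unadjusted p under 0.05. Of the 15 genes, 1 was tested there, Tnni1, with a slope of 0.88 (adjusted p = 0.776, edgeR). Myl7 had 1 to 7 counts per well there.

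**Figure D5:**
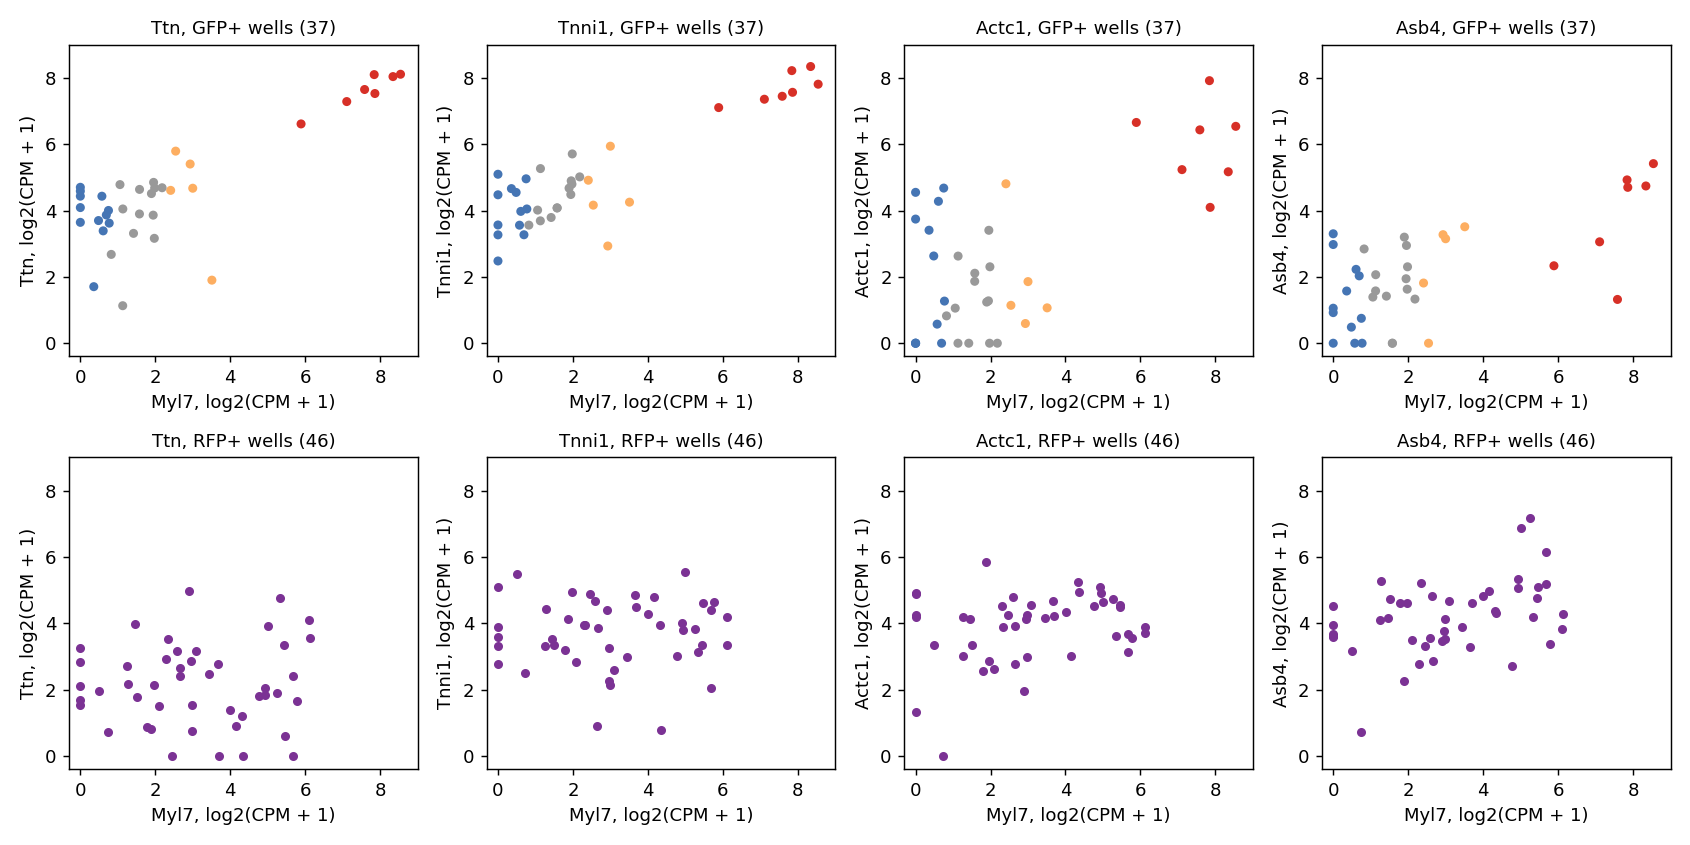
Ttn, Tnni1, Actc1 and Asb4 against Myl7, both as log2(CPM + 1), in the 37 GFP+ wells (upper row, blue Myl7-low, grey between, orange Myl7-high below the gap, red above it) and in the 46 RFP+ wells (lower row). The red wells form a group of their own for Ttn and Tnni1, and in RFP+ wells Tnni1 has a slope of 0.0017.

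The embryo libraries give a contrast that the labels set. Myl7 had 5088, 10969, 4157, 7020 and 7233 CPM in the GFP+ and 665, 370, 257 and 532 CPM in the RFP+ embryo libraries. All 4 RFP+ libraries therefore held more Myl7 than 5 of the 7 wells above the gap. Of 8503 genes tested, 330 were called higher in GFP+ embryo libraries (3.88%) and 528 higher in RFP+ libraries (6.21%). All 15 genes that were higher above the gap were tested and called higher in the GFP+ embryo libraries, with log2 fold changes of 2.10 to 6.19 and a median of 3.91. Of the 3 genes lower above the gap, 2 were tested there and 0 were called. The 15 genes are 4.55% of the 330. Read the other way, 294 of the 330 genes were tested above against below the gap, 15 were called there, 172 had a log2 fold change above 0 and their median was 0.06. Fewer genes were detected in the GFP+ (6189 to 8302) than in the RFP+ embryo libraries (10263 to 13052). Ribosomal protein genes took 1.56% to 2.07% of the counts in the GFP+ and 4.79% to 6.87% in the RFP+ embryo libraries. The part of these differences in the calls was not tested.

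Ttn had 1201, 6942, 2361, 2680 and 3963 CPM in the GFP+ and 252, 515, 79.4 and 329 CPM in the RFP+ embryo libraries, a log2 fold change of 3.58 (adjusted p = 0.0023, edgeR). The groups did not overlap, as for 3.73% of the genes tested on the higher side. Actc1 had 10614, 20303, 8121, 11764 and 19238 CPM against 556, 335, 270 and 303 CPM, a log2 fold change of 5.29 (adjusted p = 5.3e-06, edgeR). Tnnc1 had 1238, 1958, 1034, 1338 and 1820 CPM against 79.5, 43.01, 63.4 and 78.4 CPM, a log2 fold change of 4.51 (adjusted p = 7.3e-06, edgeR). The 7 spheroid wells above the gap, with 14.8 to 162 CPM of Tnnc1, spanned the range of the RFP+ embryo libraries and stayed below the GFP+ ones.

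The levels of muscle genes were also set against Myl7 in the same library. The ratio of Actc1 to Myl7 was 0.0695 to 1.71 in the 7 wells (median 0.267), 1.68 to 2.66 in the GFP+ embryo libraries and 0.571 to 1.05 in the RFP+ embryo libraries. The ratio of Ttn to Myl7 was 0.738 to 1.66 in the 7 wells, 0.236 to 0.633 in the GFP+ and 0.309 to 1.39 in the RFP+ embryo libraries. The ratio of Tnni1 to Myl7 was 0.599 to 2.34 in the 7 wells (median 0.998), 0.213 to 0.350 in the GFP+ and 0.602 to 1.48 in the RFP+ embryo libraries (median 1.12). The ratio of Tnnt2 to Myl7 was 0.167 to 0.528 in the 7 wells and 0.200 to 0.463 in the GFP+ embryo libraries, and that of Myl4 to Myl7 was 0.191 to 0.517 and 0.249 to 0.353, so that these 2 overlapped. Relative to Myl7, Ttn and Tnni1 were higher in all 7 wells than in the GFP+ embryo libraries but overlapped the RFP+ embryo libraries, and G8 was the only 1 of the 7 that reached the lowest GFP+ embryo library in Actc1. These ratios were chosen after the values were seen and were not tested.

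By the annotation GENCODE M21 on GRCm38, Myl7 lies at chr11:5896637-5898782 (minus strand), Ttn at chr2:76703980-76982547 (minus), Tnni1 at chr1:135779434-135810989 (plus), Mef2c at chr13:83504034-83667080 (plus), Actc1 at chr2:114047282-114053548 (minus) and Tnnc1 at chr14:31208312-31211729 (plus). Annotated genes on the opposite strand overlap Actc1, Ttn and Tnnc1, and the strand setting of the counting is not given in the sources used here, so that reads of such partners cannot be told apart.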

How the data were processed

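RNA from pools of 10 sorted cells was reverse transcribed from poly(A) tails, amplified and sequenced, with 1 library per well. By the study's methods, the authors ran Trimmomatic 0.36 at a quality of at least 35 and a length of at least 36, aligned the reads by HISAT2 2.0.4 on mm10 and assigned them to genes by featureCounts 1.5.2 of Subread. They deposited whole counts per gene without normalization, for 24514 symbols in 93 libraries. Groups follow the sample labels. CPM used here are counts over the library total.

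Tests were run in R 4.3.3 with edgeR 4.0.16 (TMM, filterByExpr with minimum count 10, minimum total 15 and minimum proportion 0.7, quasi-likelihood F-test, Benjamini-Hochberg over all genes tested except Myl7 in the wells, threshold 0.1). SE is the log2 fold change over the root of F. The embryo test held all genes. The scripts were tested on simulated counts with known changes. For 12 against 12 wells, 62.7%, 89.6% and 95.5% of log2 changes of 1, 2 and 3 were recovered, with 9.34% of calls false. For the embryo contrast, 8% and 24% of log2 changes of 2 and 4 were recovered (11.1% false). Over the RFP+ wells, 79% and 62% of slopes of 0.5 and 1 were recovered (7.84% false). Over the 13 wells, 61% and 32% of slopes of 2 and 4 were recovered (7% false). The split at the gap was not simulated. Alternatives used DESeq2 1.42.0, other size factors, filters, thresholds, groupings and covariates, and left out single libraries.

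The members and gene lists were chosen with earlier results of these data known. Named genes are Myl7, Actc1, Ttn, Mef2c, Hcn4, Tbx1, genes called between the 12 high and 12 low wells, and called or cell type defining list members. Genes named for the split at the gap, and genes not called, were chosen after their values were seen. Reads carry no molecular identifiers, so intervals cover counting error only. Total counts of the 24 wells were 828193 to 4371849. Promoter windows are from RefSeq on GRCm38.p6, and 96.79% of the symbols were found in GENCODE M21.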

Additional observations from a re-analysis of the deposited data

Results flagged for a closer look

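Myl4 in the RFP+ embryo libraries stood out. The library in well G12 had 65.8 CPM, whereas the other 3 had 156 to 166 CPM. It was also the lowest of the 4 for Myl7 (257 CPM) and Ttn (79.4 CPM). In all, 20 pairs of a chosen gene and an embryo group, of 4 or 5 libraries, were examined for a library that lies apart. Chance alone would give about 1 such case in 20 independent pairs, and genes measured in the same libraries are not independent.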

How the results depend on the processing

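No paired analysis was possible because the wells carry plate positions and their replicate numbers were given in accession order, so that no number pairs wells of the groups compared. For the 12 Myl7-high against the 12 Myl7-low wells, 3 genes were higher and 0 lower. DESeq2 gave 5 higher, no minimum count gave 11 higher and 1 lower, a mean of at least 10 CPM gave 7, 8 against 8 wells gave 8, the wells above the gap against the rest gave 15 higher and 3 lower, and the Myl7-high wells below the gap gave 0. Leaving out 1 of the 24 wells gave 2 (without G10, when Mef2c was lost) to 5 (without G9, when Nexn was added) higher and 0 lower. Mef2c also lost its call with 18 against 18 wells (1.93). The direction of Ttn, Tnni1 and Mef2c was kept in every alternative. For the split at the gap (15 higher, 3 lower), DESeq2 gave 8 lower, no minimum count gave 140 higher and 11 lower, a threshold of 0.05 gave 1 lower and the plate column as covariate gave 5 lower. Leaving out wells gave 13 to 17 higher and 1 to 4 lower. For the slope over the RFP+ wells (1 rising, 0 falling), DESeq2 size factors gave 3 and 2, DESeq2 gave 2 and 3, no minimum count gave 324 and 271, and the log2 total as covariate gave 1 falling. A threshold of 0.05 gave 0 rising, leaving out the 2 extreme wells gave 2 and the 7 pairs summed gave 0. For the 13 wells between, no minimum count gave 49 rising and 61 falling, and leaving out the 2 extreme wells gave 1 falling. For the embryo libraries (330 higher in GFP+, 528 in RFP+), DESeq2 gave 608 higher in GFP+, no minimum count gave 1638 higher in RFP+, and leaving out 1 library gave 211 to 402 and 399 to 753. The lowest counts in GFP+ came without the RFP+ libraries G11 (214) and H11 (211). No alternative reversed the direction of a called gene among the genes followed through the alternatives. In the embryo contrast and the slope over RFP+ wells only a few chosen genes were followed, and Fbxw11 was not among them. The cause of these changes was not tested. Summing GFP+ wells that agree within sampling noise was not run, because no pair of GFP+ wells did. Myl7 at 0 to 19 counts per well limits what the 30 wells below the gap can show.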
